A study of Mus musculus with 11 samples.

Results

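The genes described here are 10 transcripts commonly read as outputs of Wnt signalling in the intestine. They comprise the feedback antagonists Notum, Dkk2, Znrf3, Rnf43, Axin2 and Nkd1 and the targets Sp5, Lef1, Myc and Ccnd1. They were taken by gene name from a table of 23224 gene rows, and 10 of 10 were found and passed the filter on low counts, which kept 13720 genes. Notum and Dkk2 were higher than in naive organoids in both tumour-derived groups and over the SOX17 overexpression lines. In RAG2KO-derived organoids and over those lines Nkd1 was higher and Myc was lower, and no difference was detected for Axin2 in any comparison.

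The 11 poly(A) RNA libraries came from mouse colon cancer organoids, 3-dimensional cultures of epithelial cells, all with the genotype AKP, in which Apc is altered. Naive organoids (3 libraries) had not been transplanted. Organoids regrown from primary tumours had first been placed by colonoscopy into the colon of C57Bl6 mice, which are immunocompetent (3 libraries), or RAG2KO mice, which lack mature T and B cells (3 libraries), and were passaged until, per the series description, other cells were gone. The remaining 2 libraries were naive organoids given a SOX17 overexpression construct by lentivirus, 1 constitutive and 1 inducible by doxycycline. The age and sex of the mice whether doxycycline was given and whether the SOX17OE lines are clones or pools are not stated in the sources used here, nor is whether replicates came from separate cultures or animals, so p-values measure only the spread between these libraries, which may be technical.

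Wnt ligands bind Frizzled and Lrp receptors and keep beta-catenin from being degraded by a complex built on Apc and Axin. Stabilised beta-catenin enters the nucleus, joins T-cell factors (TCF/LEF) on DNA and raises the transcription of its targets. Several of those targets act back on the pathway: Notum removes the lipid that Wnt ligands need, Dkk2 binds the Lrp co-receptors, Rnf43 and Znrf3 mark Frizzled receptors for degradation, Axin2 rebuilds the degradation complex and Nkd1 acts on Dishevelled. In the intestinal crypt this pathway maintains stem cells, and loss of Apc in colon tumours leaves it active without ligand.

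Promoter sequences are shown for 3 of the genes, Dkk2 and Nkd1 because they rose from naive to RAG2KO-derived organoids and Sp5 because its promoter held the most TCF motifs among those matched while its RNA was not called in that comparison. RefSeq promoters (build GRCm38.p6) were matched for 6 of the 10 genes, Axin2, Dkk2, Nkd1, Rnf43, Sp5 and Lef1. The 250 bases before the annotated start are printed 5′ to 3′ on the gene's strand, for Dkk2 chr3:132085042-132085291, for Nkd1 chr8:88527383-88527632 and for Sp5 chr2:70474673-70474922, each on the plus strand, with matches to the TCF motif CTTTGAT or its core CTTTG in capitals on either strand.
Dkk2: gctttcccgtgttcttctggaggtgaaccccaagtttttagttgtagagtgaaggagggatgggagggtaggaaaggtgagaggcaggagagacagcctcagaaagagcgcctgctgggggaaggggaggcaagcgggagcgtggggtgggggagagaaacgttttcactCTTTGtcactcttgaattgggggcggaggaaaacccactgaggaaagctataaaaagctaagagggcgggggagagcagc
Nkd1: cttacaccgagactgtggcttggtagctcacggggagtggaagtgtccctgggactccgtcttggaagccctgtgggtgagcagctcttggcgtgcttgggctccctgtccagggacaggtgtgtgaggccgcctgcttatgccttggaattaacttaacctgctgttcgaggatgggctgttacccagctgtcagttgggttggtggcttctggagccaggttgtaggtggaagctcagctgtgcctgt
Sp5: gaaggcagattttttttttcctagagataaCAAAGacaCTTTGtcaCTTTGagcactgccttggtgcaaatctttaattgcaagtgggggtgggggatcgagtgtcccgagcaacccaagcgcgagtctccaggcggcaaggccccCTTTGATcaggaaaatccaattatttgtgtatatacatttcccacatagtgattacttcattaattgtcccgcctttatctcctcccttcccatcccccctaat
Counting -1 as the base just before the start, the Sp5 window held the full motif CTTTGAT once, at -104, and the core CTTTG 4 times, at -220 on the reverse strand and at -212, -204 and -104, the last within the full motif. The Dkk2 window held the core once, at -80, and the Nkd1 window held neither. Of the matched genes not shown, the Axin2 and Rnf43 windows held neither. The Lef1 windows of its different annotated starts held the core 1 to 3 times and no full motif. Across 32851 promoters searched the same way, 3.21% held the full motif, 48.6% held at least 1 core and 0.773% held at least 4. The matches are letters in these windows and not measured binding sites.

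Total counts per library ran from 14109182 to 22154456. Levels are given as CPM, a gene's count relative to the total of its library, with totals scaled by the trimmed mean of M values (TMM), and are compared between libraries, not between genes, since they are not corrected for gene length. Changes are log2 fold changes with standard errors (SE) from edgeR's quasi-likelihood test fitted to the 11 libraries, and a gene is called when its p, adjusted over the 13720 genes by the Benjamini-Hochberg method, is under 0.05. Sox17 read 0.0438 to 0.214 CPM in naive, 12.4 to 74.3 in C57Bl6-derived and 15.4 to 24.4 in RAG2KO-derived organoids. The library labelled constitutive SOX17OE had 72.7 CPM and the library labelled inducible SOX17OE had 4.78, and a count table cannot tell construct from endogenous transcript. Apc RNA was present at 54.3 to 100 CPM in the 11 libraries, which does not show the genomic alteration. Summed over 9 epithelial markers, 9200 to 11758 CPM were read in naive and tumour-derived libraries, 8379 in the inducible and 6660 in the constitutive SOX17OE line. A list of 11 fibroblast and smooth muscle markers summed to 0.429 to 1.001 CPM in naive, 5.71 to 16.5 in C57Bl6-derived and 2.36 to 39.0 in RAG2KO-derived organoids, 87.7 in the constitutive and 1.69 in the inducible line. Twist1 made up 80.9 of the 87.7, while Pdgfrb, Col1a1, Col1a2, Dcn, Lum, Des and Thy1 were at 0 in that line. Endothelial markers summed to 32.8 CPM in the constitutive line, of which Tek made up 26.1, and to at most 9.43 in the other libraries. Myeloid markers summed to at most 16.1 CPM, led by Cd68, nerve and glia markers to at most 3.37 and lymphoid markers to at most 1.51. The ribosomal RNA precursor Rn45s took 6.56% to 8.54% of counts in RAG2KO-derived libraries against 2.21% to 4.99% in naive and C57Bl6-derived ones, 6.39% in the constitutive and 3.71% in the inducible line. The part of these marker differences in the results was not tested. For Rn45s a fit with its share as a covariate was run, and its values are given beside the calls of the 10 genes that it ended and, for other genes, as counts. In such bulk libraries fewer cells of a type and less RNA per cell cannot be told apart.

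Against naive organoids, 5 of the 10 genes rose in C57Bl6-derived organoids, Notum, Dkk2, Znrf3, Rnf43 and Ccnd1, beside 15.3% of all tested genes called, 9.50% higher and 5.85% lower. In RAG2KO-derived organoids 4 rose, Notum, Dkk2, Nkd1 and Rnf43, and Myc fell, beside a background of 29.2%, 16.0% higher and 13.3% lower. Over both SOX17OE lines 3 rose, Notum, Dkk2 and Nkd1, and Myc fell, beside 12.7%, 6.77% higher and 5.92% lower. These comparisons share the 3 naive libraries. The median log2 fold change of the 10 genes was 0.57, 0.14 and 0.41 in turn, against 0.02, 0.02 and -0.01 over all tested genes. The 10 genes were chosen with earlier results of these data known, so these shares and medians do not test them as a set. In the plot of change against naive organoids, the secreted antagonists Notum and Dkk2 lie to the right of 0 in each comparison and Myc lies to the left.

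**Figure D1:**
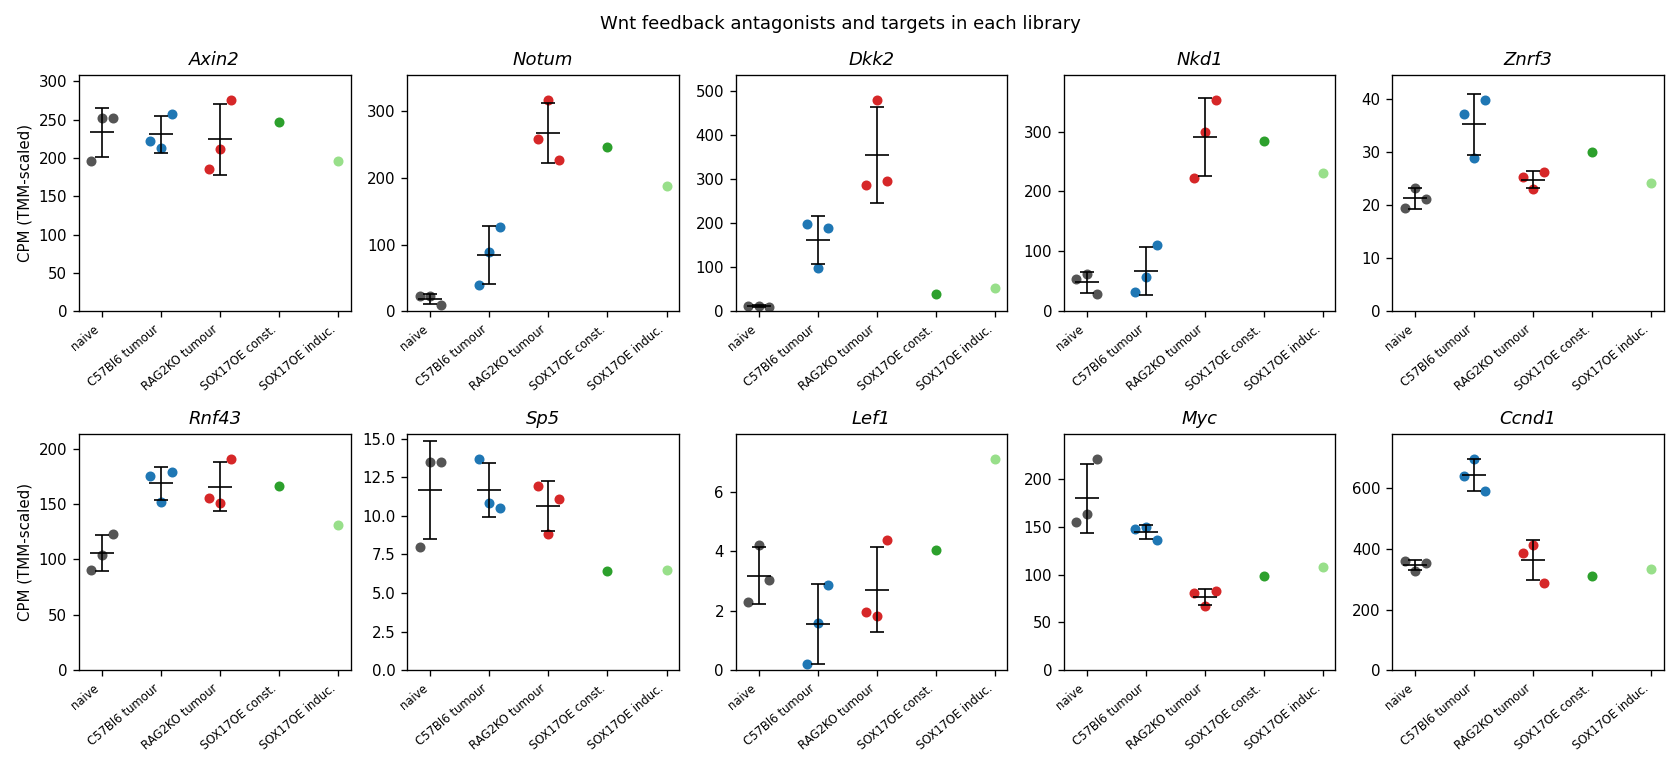
Level of each of the 10 genes in each library, in TMM-scaled CPM on linear axes that start at 0, by group; points are libraries, and bars are the mean and SD of groups with 3 libraries. Dkk2 reads 10.4 to 13.1 in naive organoids and 286 to 479 in RAG2KO-derived ones, whereas Axin2 overlaps between the groups with 3 libraries.

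Notum is a secreted enzyme that inactivates Wnt ligands. Its level was 22.3, 22.9 and 10.1 CPM in naive replicates 1 to 3, 39.5, 88.6 and 126 in C57Bl6-derived, 259, 316 and 226 in RAG2KO-derived organoids, 247 in the constitutive and 187 in the inducible SOX17OE line. No naive library reached any other library, and the 3 groups of 3 did not overlap, with RAG2KO-derived organoids highest. The group means were 18.4 ± 7.23, 84.8 ± 43.5 and 267 ± 45.6 CPM (SD, n = 3). Notum rose 4.61-fold in C57Bl6-derived (log2 2.20, SE 0.43, adjusted p = 0.00915) and 14.5-fold in RAG2KO-derived organoids (log2 3.86, SE 0.46, adjusted p = 7.65e-04). Over the 2 SOX17OE lines it was 11.7-fold higher than in naive organoids (log2 3.54, SE 0.47, adjusted p = 0.00409). With Rn45s as a covariate the RAG2KO estimate was 3.90 with an adjusted p of 0.0877, in a fit where Rn45s and the RAG2KO group cannot be told apart because each RAG2KO-derived library had more Rn45s than any other.

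Dkk2 encodes a secreted ligand of the Lrp co-receptors. It read 13.1, 12.4 and 10.4 CPM in naive, 197, 99.3 and 188 in C57Bl6-derived and 286, 479 and 296 in RAG2KO-derived organoids, 38.8 in the constitutive and 52.8 in the inducible SOX17OE line. The libraries thus fell into separate ranges, naive lowest, then the SOX17OE lines, then C57Bl6-derived, then RAG2KO-derived organoids. Means were 12.0 ± 1.40, 161 ± 54.0 and 354 ± 109 CPM (SD, n = 3). Dkk2 showed the largest rise among the 10 genes in both tumour-derived groups, 13.5-fold in C57Bl6-derived (log2 3.76, SE 0.31, adjusted p = 8.89e-05) and 29.6-fold in RAG2KO-derived organoids (log2 4.89, SE 0.32, adjusted p = 3.45e-05). It rose 3.79-fold over the SOX17OE lines (log2 1.92, SE 0.31, adjusted p = 0.00783, or 0.0548 with the Rn45s covariate).

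Nkd1 encodes a cytoplasmic inhibitor that binds Dishevelled. Its level was 54.0, 62.4 and 28.9 CPM in naive, 32.2, 57.4 and 111 in C57Bl6-derived and 223, 299 and 353 in RAG2KO-derived organoids, 284 in the constitutive and 231 in the inducible SOX17OE line. C57Bl6-derived libraries overlapped the naive ones, while both SOX17OE lines lay within the RAG2KO-derived range. Means were 48.4 ± 17.4, 66.8 ± 40.2 and 292 ± 64.9 CPM (SD, n = 3). Nkd1 rose 6.02-fold in RAG2KO-derived organoids (log2 2.59, SE 0.45, adjusted p = 0.00383, or 0.230 with the Rn45s covariate) and 5.29-fold over the SOX17OE lines (log2 2.40, SE 0.47, adjusted p = 0.0163). The last call did not hold without naive replicate 3 (log2 2.14, adjusted p = 0.0603), without the constitutive line (2.25, 0.0996) or with the Rn45s covariate (2.35, 0.0836). In C57Bl6-derived organoids the estimate was 0.47 (SE 0.43, adjusted p = 0.509), and it was -0.11 without C57Bl6-derived replicate 3.

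Axin2 encodes a scaffold of the degradation complex and is the target most often used to read the pathway. It read 196, 252 and 252 CPM in naive, 222, 213 and 257 in C57Bl6-derived and 185, 211 and 275 in RAG2KO-derived organoids, 246 in the constitutive and 196 in the inducible SOX17OE line. The groups of 3 overlapped throughout, with means of 233 ± 32.1, 231 ± 23.7 and 224 ± 46.3 CPM (SD, n = 3). The log2 change from naive was -0.02 in C57Bl6-derived organoids with a 95% interval from -0.39 to 0.36, and -0.06 (-0.43 to 0.32) in RAG2KO-derived ones. Over the SOX17OE lines it was -0.09 (-0.51 to 0.33). Those intervals leave out changes of the size seen for Notum, Dkk2 or, in RAG2KO-derived organoids, Nkd1.

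Znrf3 and Rnf43 encode related membrane ubiquitin ligases that act on Frizzled receptors. Znrf3 read 19.4, 23.3 and 21.1 CPM in naive, 37.2, 28.8 and 39.8 in C57Bl6-derived and 25.3, 22.9 and 26.2 in RAG2KO-derived organoids, 30.0 in the constitutive and 24.1 in the inducible SOX17OE line. Its C57Bl6-derived libraries stood above the other tumour-derived and the naive ones, and the change from naive was 1.66-fold (log2 0.73, SE 0.15, adjusted p = 0.0107). Rnf43 read 90.7, 104 and 123 CPM in naive, 176, 152 and 179 in C57Bl6-derived and 156, 151 and 191 in RAG2KO-derived organoids, 166 in the constitutive and 131 in the inducible line. Each of the other 8 libraries exceeded the naive ones for Rnf43. Rnf43 rose 1.59-fold in C57Bl6-derived (log2 0.67, SE 0.15, adjusted p = 0.0141) and 1.57-fold in RAG2KO-derived organoids (log2 0.65, SE 0.15, adjusted p = 0.0110, or 0.222 with the Rn45s covariate). In C57Bl6-derived organoids the Znrf3 call did not hold without naive replicate 1 (log2 0.64, adjusted p = 0.0596), nor the Rnf43 call without naive replicate 1 (0.55, 0.0820) or replicate 2 (0.66, 0.0641). Znrf3 in RAG2KO-derived organoids was not called (log2 0.22, adjusted p = 0.297), and over the SOX17OE lines the estimates were 0.34 for Znrf3 (adjusted p = 0.203) and 0.48 for Rnf43 (adjusted p = 0.0807).

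Sp5 and Lef1 encode transcription factors that are themselves Wnt targets, Lef1 being a DNA-binding partner of beta-catenin. Sp5 read 8.005, 13.5 and 13.5 CPM in naive, 13.7, 10.8 and 10.5 in C57Bl6-derived and 11.9, 8.82 and 11.1 in RAG2KO-derived organoids, 6.397 in the constitutive and 6.470 in the inducible SOX17OE line. Both SOX17OE lines lay below the other 9 libraries for Sp5. The change from naive missed the threshold in the edgeR test (log2 -0.86, SE 0.28, adjusted p = 0.0669), and it passed without naive replicate 1 (log2 -1.07, adjusted p = 0.0335). In that comparison DESeq2 and limma voom each called 2 of the 10 genes lower, against 1 in edgeR. The Sp5 interval ran from -0.53 to 0.52 in C57Bl6-derived and from -0.67 to 0.39 in RAG2KO-derived organoids. Lef1 was detected at 4 to 122 counts per library, and read 2.29, 4.21 and 3.05 CPM in naive, 0.210, 1.57 and 2.88 in C57Bl6-derived, 1.95, 1.81 and 4.37 in RAG2KO-derived organoids, 4.03 in the constitutive and 7.11 in the inducible line. The Lef1 estimates of -1.03, -0.24 and 0.74 against naive had 95% intervals from -2.58 to 0.51, -1.75 to 1.28 and -0.91 to 2.39, the widest among the 10 genes.

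Myc and Ccnd1 encode a growth-promoting transcription factor and cyclin D1, which drives entry into the cell cycle. Myc read 155, 163 and 221 CPM in naive, 148, 150 and 137 in C57Bl6-derived and 80.8, 66.6 and 82.5 in RAG2KO-derived organoids, 98.1 in the constitutive and 107 in the inducible SOX17OE line. The RAG2KO-derived libraries were the lowest, the SOX17OE lines came next, and the naive ones were the highest. Myc fell 2.35-fold in RAG2KO-derived organoids (log2 -1.23, SE 0.16, adjusted p = 7.73e-04, or 0.146 with the Rn45s covariate) and 1.75-fold over the SOX17OE lines (log2 -0.81, SE 0.18, adjusted p = 0.0193). The call over the SOX17OE lines did not hold without the constitutive line (log2 -0.74, adjusted p = 0.147), with the Rn45s covariate (-0.65, 0.107) or with the lines as 1 group (-0.80, 0.0527). The C57Bl6 change was -0.31 (SE 0.15, adjusted p = 0.199). Ccnd1 behaved otherwise, with 359, 329 and 353 CPM in naive, 643, 697 and 592 in C57Bl6-derived and 386, 413 and 288 in RAG2KO-derived organoids, 311 in the constitutive and 333 in the inducible line. Its C57Bl6-derived libraries lay above the other 8 libraries, 1.86-fold above naive (log2 0.89, SE 0.15, adjusted p = 0.00334). In RAG2KO-derived organoids the Ccnd1 estimate was 0.06 (SE 0.15, adjusted p = 0.775), and over the SOX17OE lines it was -0.11 (adjusted p = 0.683).

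**Figure D2:**
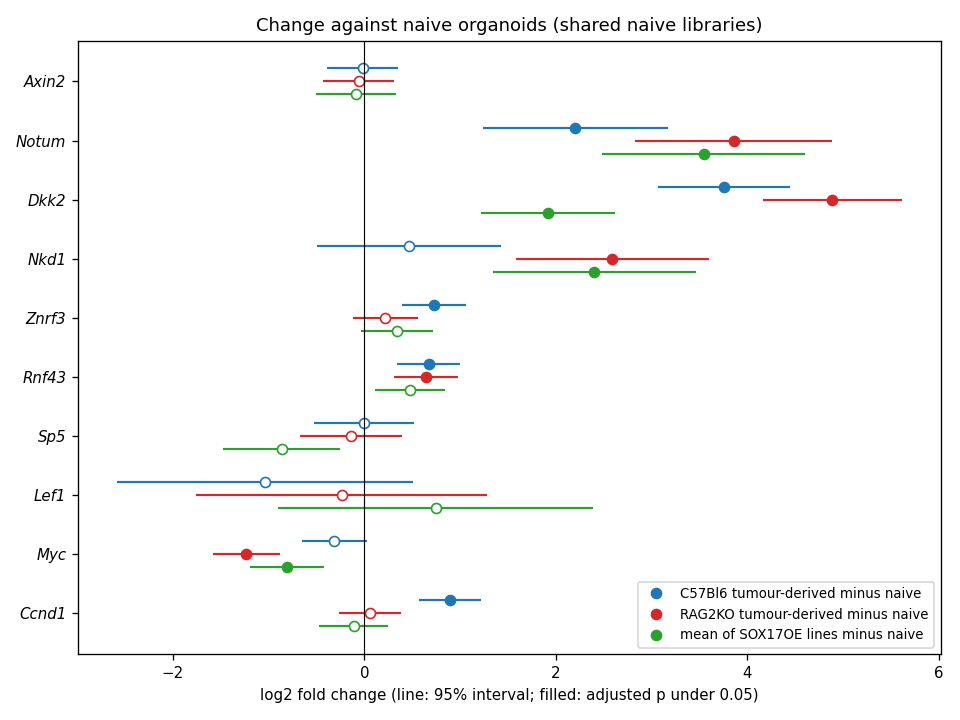
Log2 fold change of each gene against naive organoids in C57Bl6-derived and RAG2KO-derived organoids and over the SOX17OE lines; points are edgeR estimates, lines are 95% intervals and filled points have an adjusted p under 0.05. The 3 comparisons share the naive libraries; Dkk2 reaches 4.89 in RAG2KO-derived organoids, and the Axin2 intervals include 0.

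The tumour-derived groups differed from each other in 6 of the 10 genes, beside 24.0% of all tested genes (11.8% higher and 12.2% lower), with a median of -0.03 for the 10 genes and -0.0011 over all. RAG2KO-derived organoids had more of 3 antagonists, Nkd1 (log2 2.12, SE 0.44, adjusted p = 0.0106), Notum (1.66, SE 0.41, adjusted p = 0.0212) and Dkk2 (1.13, SE 0.28, adjusted p = 0.0177). They had less Myc (-0.92, SE 0.15, adjusted p = 0.00454), less Ccnd1 (-0.83, SE 0.15, adjusted p = 0.00521) and less Znrf3 (-0.51, SE 0.15, adjusted p = 0.0365). In 6 of the 10 genes, the ones called, the 3 libraries of one group lay entirely on one side of the other 3. The same held for 39.8% of all tested genes, called or not. The calls come from the same libraries, so this separation adds no support to them. Axin2 (-0.04), Rnf43 (-0.02), Sp5 (-0.14) and Lef1 (0.80) were not called. The Notum call did not hold without RAG2KO-derived replicate 2 (log2 1.52, adjusted p = 0.0560). The Znrf3 call did not hold without naive replicate 1 (adjusted p = 0.0541) or 2 (0.0572), C57Bl6-derived replicate 1 (0.0881) or 3 (0.125), or RAG2KO-derived replicate 1 (0.0673), 2 (0.101) or 3 (0.0687). With the Rn45s covariate, where 2 of all tested genes passed, the 6 calls did not hold. There Dkk2 moved to 0.27 (adjusted p = 0.897) and Myc to -0.52 (adjusted p = 0.649).

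The SOX17OE lines have 1 library each, so a test of 1 line assumes that it varies as the other groups do. In the constitutive line Notum (log2 3.74, adjusted p = 0.00358), Dkk2 (1.70, 0.0190) and Nkd1 (2.55, 0.0187) were above naive organoids and Myc was below (-0.87, 0.0352), beside 12.3% of all tested genes called (7.23% higher and 5.04% lower). In the inducible line Notum (3.34, adjusted p = 0.0329) and Dkk2 (2.14, 0.0382) were called, beside 0.656% (0.525% higher and 0.131% lower), and Nkd1 (2.25, 0.101) and Myc (-0.74, 0.148) were not. The difference between the lines was not tested. With the Rn45s covariate these 6 calls did not hold, with adjusted p of 0.0677 for Notum, 0.264 for Dkk2, 0.187 for Nkd1 and 0.288 for Myc in the constitutive line, and 0.0613 for Notum and 0.0550 for Dkk2 in the inducible line. For the constitutive line, the Dkk2 call did not hold without naive replicate 2 (adjusted p = 0.0549) or 3 (0.0590), the Nkd1 call without naive replicate 3 (0.0559), and the Myc call without naive replicate 2 (0.0645) or 3 (0.0532) or C57Bl6-derived replicate 3 (0.0513). For the inducible line, Notum was not called without naive replicate 1 (0.0773), 2 (0.09997) or 3 (0.0884) or RAG2KO-derived replicate 1 (0.0630). Dkk2 there was not called without naive replicate 1 (0.0859), 2 (0.122) or 3 (0.129) or RAG2KO-derived replicate 1 (0.0560) or 3 (0.0511).

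Set against the mean of the tumour-derived groups, the SOX17OE lines had less Dkk2, 5.28-fold (log2 -2.40, SE 0.32, adjusted p = 0.00210), and less Ccnd1 (log2 -0.59, SE 0.15, adjusted p = 0.0336), which were the 2 of 10 genes called, beside 11.6% of all tested genes (4.90% higher and 6.73% lower). The Dkk2 ranges of the lines and the tumour-derived libraries did not overlap, while those of Ccnd1 did, with RAG2KO-derived replicate 3 at 288 CPM below both lines. That mean joins groups that themselves differed in Dkk2, Notum, Nkd1, Znrf3, Myc and Ccnd1. In Ccnd1 the lines (311 and 333 CPM) lay within the RAG2KO-derived range (288 to 413) and below the C57Bl6-derived one (592 to 697). In Nkd1 they (284 and 231 CPM) lay within the RAG2KO-derived range (223 to 353) and above the C57Bl6-derived one (32.2 to 111). The Ccnd1 call did not hold without naive replicate 1 (adjusted p = 0.0507) or 2 (0.0604), RAG2KO-derived replicate 1 (0.0518), the constitutive (0.144) or the inducible line (0.104), nor with the Rn45s covariate (0.0555). Notum (log2 0.51, 95% interval -0.37 to 1.40) and Nkd1 (0.88, -0.03 to 1.78) were not called, and Nkd1 passed without C57Bl6-derived replicate 3 (1.16, adjusted p = 0.0472). Sp5 (-0.79, adjusted p = 0.0696) passed without naive replicate 1 (adjusted p = 0.0494). The Myc estimate was -0.04, with an interval from -0.38 to 0.31. In Myc the lines (98.1 and 107 CPM) lay below the C57Bl6-derived libraries (137 to 150) and above the RAG2KO-derived ones (66.6 to 82.5). The estimate near 0 thus does not show that the lines were like either group.

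**Figure D3:**
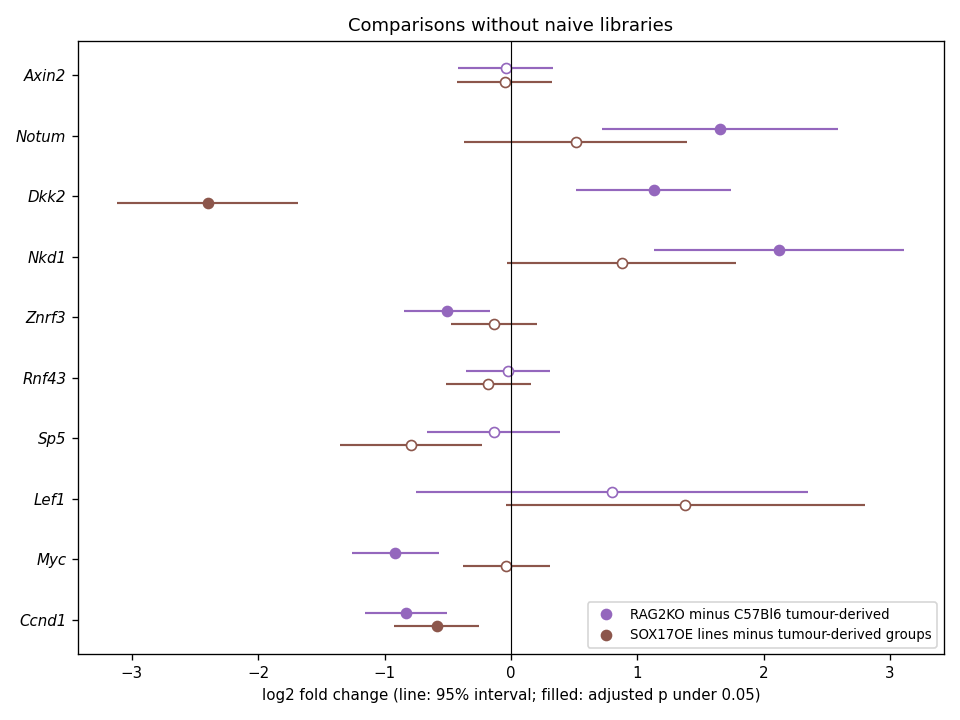
Log2 fold change of each gene in RAG2KO-derived against C57Bl6-derived organoids and in the SOX17OE lines against the mean of the tumour-derived groups; points are edgeR estimates, lines are 95% intervals and filled points have an adjusted p under 0.05. Dkk2 lies at 1.13 in the first comparison and at -2.40 in the second.

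As a description across libraries, the levels of Notum and Nkd1 moved together, with a Pearson r of log2 CPM of 0.910 over the 11 libraries and 0.889 within the 3 groups of 3 after their means were removed (9 libraries). Notum and Dkk2 had an r of 0.759 over the 11 libraries and 0.0877 within groups. The Notum and Myc levels were opposed, with an r of -0.916 overall and -0.703 within groups. Among all other tested genes outside the Wnt lists, those most like Notum were Dync1i1, Tmem50b and Zfp358, each with an r of 0.970. For Dkk2 they were 1700003F12Rik (0.971), Optn (0.969) and Gpd1 (0.963), whose within-group values of 0.279, -0.0662 and 0.430 were lower. For Axin2 they were Gpsm1 (0.833), Ctdsp2 (0.789) and Lrp2bp (0.768). The points share library depth and scaling.

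Of 128 other genes of the pathway with a row in the table, 100 were tested. These lists too were chosen with earlier results of these data known, so their counts and medians do not test them as sets. In C57Bl6-derived organoids 26 rose and 5 fell against naive organoids, with a median log2 change of 0.19, beside 9.50% of all tested genes called higher and 5.85% lower. The count was 22 with the Rn45s covariate, which ended the call of Nkd2 below. Ligands rose in 4 of 11 tested, among them Wnt7b from 6.49 to 7.72 CPM in naive to 67.4 to 165 (log2 3.89, adjusted p = 4.14e-04) and Wnt7a from 0.570 to 1.24 CPM to 17.1 to 42.1 (log2 5.12, adjusted p = 8.11e-04). Receptors rose in 5 of 18, led by the co-receptor Ptk7 (log2 4.87, adjusted p = 2.36e-05) and Fzd6 (0.97, adjusted p = 0.00467). Of 9 other antagonists 2 rose, Kremen1 (1.19, adjusted p = 0.00298) and Dkk3, which read 0.0438 to 0.143 CPM in naive and 1.91 to 3.77 in C57Bl6-derived organoids (adjusted p = 0.00386), and 1 fell. Among 18 genes of the degradation complex and its transducers 4 rose, first Csnk1e (0.58, adjusted p = 0.0112) and Nkd2 (0.0438 to 0.286 CPM in naive, 0.367 to 4.80 in C57Bl6-derived organoids, adjusted p = 0.0186), and neither held without naive replicate 1 (adjusted p = 0.0583 and 0.0770) or 2 (0.0597 and 0.0791), Nkd2 also not without C57Bl6-derived replicate 3 (0.0574). Nuclear factors rose in 5 of 15, among them Sox17 (adjusted p = 7.63e-04) and the beta-catenin co-activator Bcl9 (1.23, adjusted p = 0.00461). Of 27 other targets 6 rose and 4 fell, first the receptor Tnfrsf19 (1.56, adjusted p = 0.00118) and the intestinal transcription factor Cdx1 (-4.54, adjusted p = 0.00104).

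In RAG2KO-derived organoids 32 of the 100 rose and 14 fell, with a median of 0.14, beside 16.0% of all tested genes higher and 13.3% lower. With the Rn45s covariate 1 of the 100 was called, Ptk7, so the other calls below did not hold in that fit. Ligands rose in 8 of 11, first Wnt7a (log2 4.94, adjusted p = 8.41e-04) and Wnt6, which read 0.191 to 0.438 CPM in naive and 6.48 to 9.23 in RAG2KO-derived organoids (4.62, adjusted p = 0.00134). Both genes of ligand export rose, Wls (0.71, adjusted p = 0.00275) and Porcn (1.07, adjusted p = 0.0352), the latter not without naive replicate 1 (0.1002) or 2 (0.121) or RAG2KO-derived replicate 2 (0.0919) or 3 (0.103). Receptors rose in 4 and fell in 4 of 18, led by Ptk7 (4.44, adjusted p = 3.45e-05) and the stem cell receptor Lgr5 (-1.77, adjusted p = 0.00478), which read 50.2 to 71.7 CPM in naive and 8.17 to 22.3 in RAG2KO-derived organoids. Of the other antagonists 3 rose, first Dkk3 (1.69 to 10.4 CPM, adjusted p = 0.00109) and Wif1, which binds Wnt ligands (6.03, adjusted p = 0.00498). The transducers had 4 higher and 3 lower, with Csnk1e (0.69, adjusted p = 0.00351) and Ctnnb1, which encodes beta-catenin, first (0.68, adjusted p = 0.00382). Apc was among the lower ones (-0.53, adjusted p = 0.0485), with 79.5 to 86.1 CPM in naive and 54.3 to 59.5 in RAG2KO-derived organoids. Nuclear factors rose in 7 of 15, among them the co-repressor Tle2, which read 0.143 to 0.429 CPM in naive and 3.84 to 8.29 in RAG2KO-derived organoids (adjusted p = 5.58e-04), and Sox17 (adjusted p = 0.00104). Of 27 other targets 7 were lower and 4 higher, first Ephb2 (-1.86, adjusted p = 6.83e-04) and Mmp7 (3.65, adjusted p = 0.00154).

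Between the tumour-derived groups 9 of the 100 were higher and 21 lower in RAG2KO-derived organoids, with a median of -0.21, beside 11.8% of all tested genes higher and 12.2% lower. The 30 calls did not hold with the Rn45s covariate. The largest role with falls was the other targets, 9 of 27 lower and 2 higher, first the cyclin-dependent kinase Cdk6 (log2 -1.18, adjusted p = 0.00273) and Bambi (3.04, adjusted p = 0.00137). Bambi encodes a membrane pseudoreceptor and read 9.12 to 19.1 CPM in C57Bl6-derived and 82.6 to 162 in RAG2KO-derived organoids. Receptors fell in 4 of 18, first Lgr5 (-1.68, adjusted p = 0.00844) and Lrp6 (-0.62, adjusted p = 0.0179), the latter not without C57Bl6-derived replicate 1 (0.0524) or 3 (0.0539) or RAG2KO-derived replicate 3 (0.0521). The antagonists Shisa2 (2.79, adjusted p = 0.0103) and Wif1 (3.83, adjusted p = 0.0201) were higher, Wif1 not without RAG2KO-derived replicate 2 (0.0539), and 3 antagonists rose and 1 fell in all. Wls (0.94, adjusted p = 0.00252), Tle2 (2.45, adjusted p = 0.00535), Hbp1 (0.85, adjusted p = 0.00809) and the ligand Wnt5b (2.46, adjusted p = 0.0179) were higher. Wnt7b (-1.17, adjusted p = 0.0403) and 4 of 18 transducers were lower, first Axin1 (-0.44, adjusted p = 0.0241) and Tnks (-0.83, adjusted p = 0.0339). With 1 library left out, the Wnt7b call did not hold without a naive library, C57Bl6-derived replicate 2 or 3 or RAG2KO-derived replicate 1 or 3 (adjusted p 0.0543 to 0.113). Axin1 and Tnks did not hold without C57Bl6-derived replicate 1 or 3 or RAG2KO-derived replicate 1 or 2 (adjusted p 0.0554 to 0.0666 for Axin1 and 0.0629 to 0.0965 for Tnks), nor Tnks without naive replicate 2 (0.0523).

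Over the SOX17OE lines 8 of the 100 rose and 10 fell against naive organoids, with a median of -0.07, beside 6.77% of all tested genes higher and 5.92% lower. The 8 include Sox17, the gene that these lines were made to overexpress, so its rise is part of the design. With the Rn45s covariate 4 were called, and of those named below Sox17, Lgr5 and Ccnd2 kept their calls. Lgr5 read 1.56 CPM in the constitutive and 6.30 in the inducible line (log2 -4.20, adjusted p = 0.00151). Sox17 (adjusted p = 0.00454), Wif1 (5.64, adjusted p = 0.0178), Fzd6 (1.03, adjusted p = 0.0104), Ctnnbip1 (1.302, adjusted p = 0.00769), Wnt7a (2.56, adjusted p = 0.0337) and Wls (0.46, adjusted p = 0.0480) were higher. Cdx1 (-3.29, adjusted p = 0.0160), Kremen2 (-2.15, adjusted p = 0.0236) and Ccnd2 (-1.09, adjusted p = 0.0145) were lower, where Ccnd2 read 51.0 CPM in the constitutive and 192 in the inducible line. Without the constitutive line, Lgr5 kept its call and the others named here did not, with adjusted p from 0.0722 for Sox17 to 0.826 for Ccnd2. Calls also ended without naive replicate 2 for Wnt7a (adjusted p = 0.110), Wif1 (0.0703), Kremen2 (0.0668), Ccnd2 (0.0542) and Cdx1 (0.0511), without naive replicate 3 for Wnt7a (0.0784), Wif1 (0.0723) and Kremen2 (0.0679), and without naive replicate 1 for Wnt7a (0.0734). The Wls call ended without the inducible line, a naive library, C57Bl6-derived replicate 2 or 3 or RAG2KO-derived replicate 2 or 3 (adjusted p 0.0510 to 0.138). Against the tumour-derived groups 3 rose and 19 fell, with a median of -0.46, beside 4.90% of all tested genes higher and 6.73% lower. The count was 19 with the Rn45s covariate, where the calls of Sox7 and Bcl9 did not hold. Falls covered 4 of 11 ligands, first Wnt7b (-3.38, adjusted p = 0.00244) and Wnt6 (-3.81, adjusted p = 0.00957), and 3 of 18 receptors, first Ptk7 (-4.57, adjusted p = 1.71e-04) and Lgr5 (-3.27, adjusted p = 0.00191). Dkk3 (adjusted p = 0.0162), Kremen1 (-0.87, adjusted p = 0.0232), Dact2 (-1.13, adjusted p = 0.0161), Ctnnb1 (-0.55, adjusted p = 0.0228), Cd44 (-1.51, adjusted p = 0.00745), Tnfrsf19 (-0.9965, adjusted p = 0.0192) and Bcl9 (-0.77, adjusted p = 0.0493) were lower too, as was Sox7 (adjusted p = 0.0429), with 0 counts in both lines. Without 1 of the SOX17OE lines, Wnt7b, Ptk7, Lgr5 and Cd44 kept their calls, and the other 8 lost theirs without at least 1 of the lines (adjusted p 0.0568 to 0.211). Sox7 and Bcl9 lost theirs also without a naive library or C57Bl6-derived replicate 2 or 3 (adjusted p 0.0538 to 0.0821), and Bcl9 without RAG2KO-derived replicate 2 (0.0586) or 3 (0.0569).

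**Figure D4:**
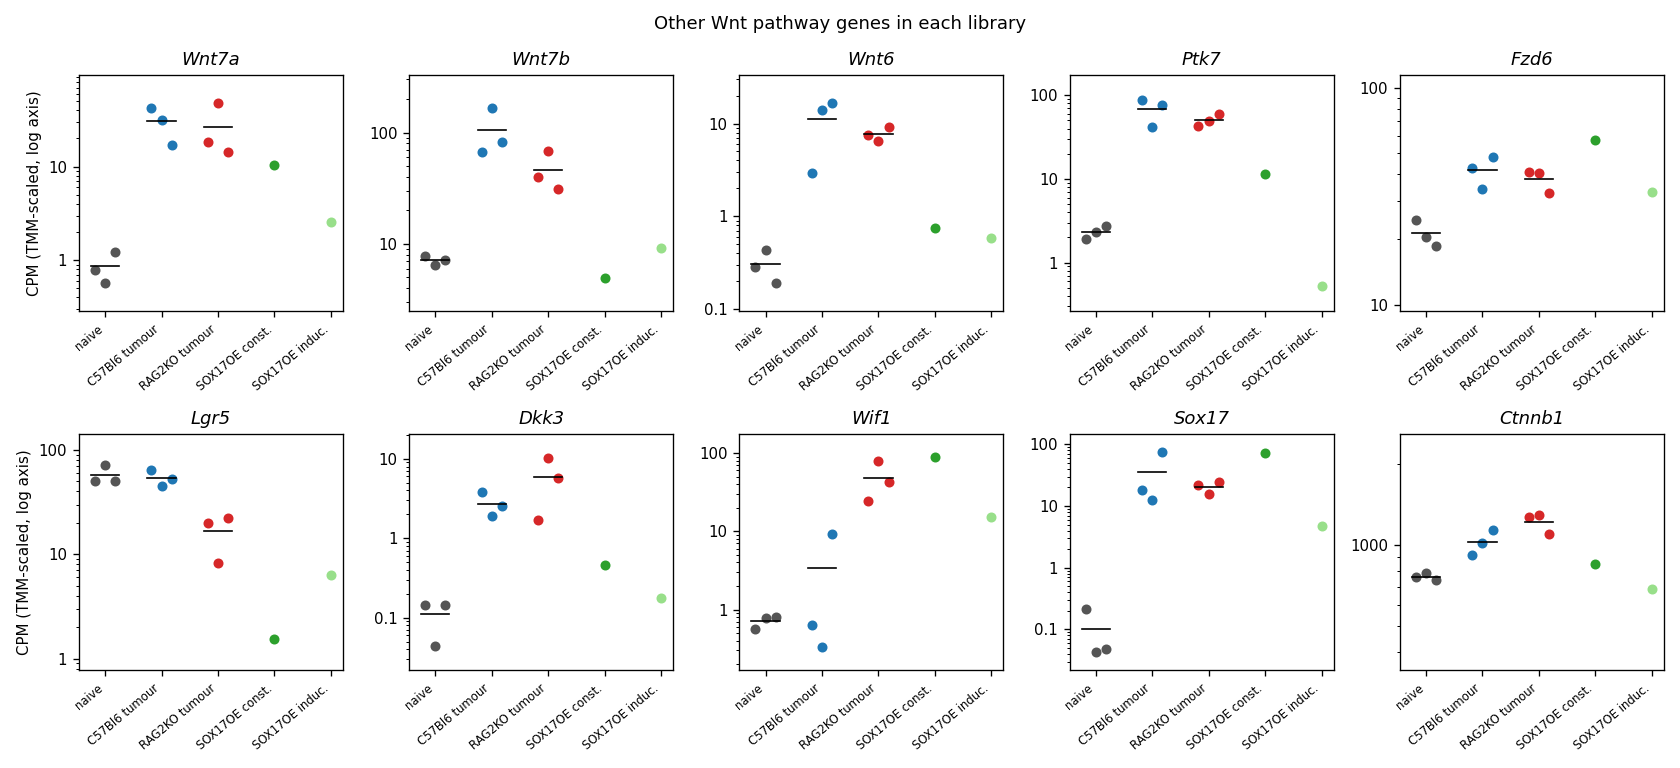
Levels of 10 other pathway genes in each library, in TMM-scaled CPM on log axes, by group; points are libraries and short lines are means of groups with 3 libraries. Wnt7b reads 31.4 to 165 in the tumour-derived libraries and 4.96 to 9.09 in naive and SOX17OE libraries, and Lgr5 is lowest in the constitutive line.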

How the data were processed

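The data are 11 poly(A) RNA libraries of mouse AKP organoids in 5 groups taken from the labels. Per the submitters' processing notes, Bowtie, RSEM and the mm9 build were used; the sources used here give no versions, annotation or strand setting of counting. The values are RSEM expected counts deposited by the authors for 23224 gene names, and they were rounded to whole numbers. Per the labels, libraries were made with a directional kit. Genes were filtered with filterByExpr (13720 kept), scaled by TMM and fitted with edgeR 4.0.16 (robust quasi-likelihood test, R 4.3.3) over the 11 libraries, with Benjamini-Hochberg adjustment. The biological coefficient of variation was 25.3%, with 6 residual degrees of freedom. The script was tested on simulated data.

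Other scalings, filters, an Rn45s covariate, a replicate block, DESeq2 1.42.0, limma voom 3.58.1, the groups compared alone and each library left out were tried. Genes named are the 10, Sox17, Apc, the first 2 called by adjusted p in each role list of the pathway in the comparisons of groups, and 3 genes most like Axin2, Notum and Dkk2. The 10 genes and the lists were chosen with earlier results of these data known. In GENCODE, genes on the opposite strand overlap Axin2, Notum, Lef1, Ccnd1 and Rnf43, and genes on the same strand overlap Lef1, Nkd1 and Rnf43; reads of such pairs may not be told apart.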

Additional observations from a re-analysis of the deposited data

Results flagged for a closer look

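The change from naive organoids differed between the C57Bl6-derived and RAG2KO-derived groups for 6 of the 10 genes, by a direct test of the difference (edgeR, adjusted p under 0.05). Of all tested genes, 24.0% were called in the same comparison. The difference, RAG2KO-derived minus C57Bl6-derived on the log2 scale, was 2.12 for Nkd1, 1.66 for Notum, 1.13 for Dkk2, -0.51 for Znrf3, -0.83 for Ccnd1 and -0.92 for Myc. RAG2KO-derived libraries also had more Rn45s (6.56% to 8.54% of counts) than C57Bl6-derived ones (2.21% to 3.77%), and this cannot be told apart from the group. With the Rn45s share as a covariate the 6 calls did not hold. The Znrf3 call also ended in several fits with 1 library left out.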

How the results depend on the processing

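Limits: the SOX17OE lines have 1 library each, Lef1 rests on as few as 4 counts in a library, and the Rn45s covariate cannot be told apart from the RAG2KO group. Over all 13720 tested genes, the covariate left 148 calls for RAG2KO-derived organoids against naive and 2 between the tumour-derived groups. With that covariate the number of the 10 genes called was 1 for RAG2KO-derived organoids against naive (of 5), 0 between the tumour-derived groups (of 6), 1 for the mean of the SOX17OE lines (of 4), 0 for the constitutive (of 4) and 0 for the inducible line (of 2), and 1 against the tumour-derived groups (of 2). For the inducible line it was 1 with no filter and 4 with the DESeq2 Wald test, and for the SOX17OE lines against the tumour-derived groups it was 1 with only the groups compared. With 1 library left out the counts were 3 to 5 for C57Bl6-derived organoids, 5 throughout for RAG2KO-derived organoids, 4 to 6 between the tumour-derived groups, 2 to 5 for the mean of the SOX17OE lines, 2 to 4 for the constitutive line, 0 to 3 for the inducible line and 1 to 3 against the tumour-derived groups. Same-numbered libraries of the 3 groups correlated at -0.192 to 0.181 in their deviations from group means (9 pairs, 2 over 0.1). They share no recipient mouse, since naive organoids were not transplanted and the tumour-derived groups had different recipients. No label states that they share a source animal, culture or day, and these values cannot exclude it. With the replicate number as a block the counts were 5, 5 and 5 for the C57Bl6-derived, RAG2KO-derived and tumour-derived comparisons, Znrf3 being lost in the last (log2 -0.48, adjusted p = 0.0683).

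Reversals occurred only in estimates that were not called. By upper-quartile scaling Axin2 was 0.0063 (RAG2KO-derived against naive), 0.062 (between tumour-derived groups) and 0.0014 (SOX17OE lines against tumour-derived groups), Rnf43 was 0.081 between tumour-derived groups and Myc 0.014 in the SOX17OE lines against tumour-derived groups. By library totals Ccnd1 was -0.019 in RAG2KO-derived organoids. Sp5 in C57Bl6-derived organoids was 0.0035 with no filter and 0.00031 with 1 CPM in 3 libraries. With the Rn45s covariate, against naive, RAG2KO-derived organoids had Axin2 at 0.084, Sp5 at 0.25 and Lef1 at 1.04, and against C57Bl6-derived organoids Axin2 at 0.13, Rnf43 at 0.16 and Sp5 at 0.30. With only the groups compared Rnf43 was 0.0057 between tumour-derived groups. With 1 library left out, Axin2 ran from -0.15 to 0.042 (C57Bl6-derived), -0.23 to 0.061 (RAG2KO-derived), -0.22 to 0.078 (between them), -0.25 to 0.078 (mean of the SOX17OE lines), -0.036 to 0.14 (constitutive line) and -0.21 to 0.12 (SOX17OE lines against tumour-derived groups). In C57Bl6-derived organoids Sp5 ran from -0.23 to 0.12 and Nkd1 from -0.11 to 0.80, in RAG2KO-derived ones Lef1 from -0.76 to 0.018 and Ccnd1 from -0.040 to 0.20, and between the groups Rnf43 from -0.14 to 0.040. In the SOX17OE lines against the tumour-derived groups Myc ran from -0.10 to 0.030 and Znrf3 from -0.29 to 0.020. The cause was not tested.

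Over all genes, calls for C57Bl6-derived organoids numbered 2106 and ran from 1030 (without naive replicate 2) to 4067 (limma voom), for RAG2KO-derived 4010 (148 with the Rn45s covariate to 5425), between the groups 3295 (2 with that covariate to 3993), for the mean of the SOX17OE lines 1741 (85 without the constitutive line to 3815), for the constitutive line 1684 (195 to 3176), for the inducible line 90 (12 to 800) and against the tumour-derived groups 1595 (674 to 2417). Upper-quartile scaling moved the median of all genes between the tumour-derived groups from -0.0011 to 0.0998; 2017 genes were then higher and 1150 lower, by library totals 1290 and 2263, and with TMM 1618 and 1677.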

Other observations

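Myc did not overlap between naive (155 to 221 CPM) and C57Bl6-derived organoids (137 to 150 CPM), although its change was not called. The share of all tested genes that separated in this way in that comparison is not given here, so the separation is only a description. Across the 6 chromosomes that carry the 10 genes, the median log2 difference from naive organoids over all tested genes of a chromosome lay between -0.0375 and 0.138 in each library. The spread within groups was not alike for the 10 genes: among the C57Bl6-derived libraries Notum ran from 39.5 to 126 CPM and Nkd1 from 32.2 to 111, whereas Ccnd1 ran from 592 to 697.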
